A study of Danio rerio with 4 samples.

Results

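The genes described here are 6 regulators of the zebrafish jaw joint and of the cartilage on either side of it: nkx3.2, barx1, gdf5, irx7, irx5a and trps1. They were picked by symbol from a table of 31953 genes, and each symbol matched 1 row (ENSDARG00000037639, ENSDARG00000007407, ENSDARG00000002760, ENSDARG00000002601, ENSDARG00000034043 and ENSDARG00000104082 in that order). RNA was sequenced from pharyngeal arch cells of zebrafish (Danio rerio) at the 36 hours post-fertilization (hpf) stage, sorted for the transgenes fli1a:GFP and sox10:DsRed together. All 4 libraries carry both reporters, and each was made from pooled embryos.

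The mutant group has 2 libraries, mutant 1 and mutant 2, from embryos mutant for nr2f2 and nr2f5, which were picked by their ocular coloboma. Their replicates held 37 and 84 embryos, with 18858 and 30655 cells, and the labels do not say which number belongs to which library. The control is 1 library of embryos with the sox10:Gal4 driver (69 embryos, 86517 cells). The remaining library, labelled UAS:Nr2f5, is from embryos with sox10:Gal4 and UAS:Nr2f5 (84 embryos, 56866 cells), in which Gal4 made under the neural crest promoter is meant to drive Nr2f5. The labels give a fin biopsy at 24 hpf and the driver for these last groups and neither for the mutants, so that the driver, the biopsy and the mutations cannot be told apart. The study's question is how Nr2f factors act on upper jaw identity.

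In the fish larva the lower jaw hinges on the upper jaw at a joint that forms within a continuous arch skeleton. Cells of the intermediate arch are held back from making cartilage there, while cells above and below it become chondrocytes. nkx3.2 (also called bapx1) encodes a homeodomain repressor that is needed for the jaw joint. barx1 encodes a homeodomain factor that promotes cartilage and opposes joint fate, and zebrafish that lack it form extra joints. gdf5 encodes a secreted ligand of the Bmp family made in joint interzones. irx7 and irx5a encode Iroquois homeodomain factors that keep chondrocytes immature at the hyoid joint of zebrafish. trps1 encodes a GATA-type zinc finger repressor, named for a human syndrome of the hair, nose and finger joints.

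Values are in RPM, reads per 1000000 in the library, on an assumed scale and not divided by gene length, so levels are compared between libraries and not between genes. In those units the libraries hold 10127924 to 34787209 reads, and 1 read is worth 0.0287 to 0.0441 RPM in the mutants and the control and 0.0987 in the shallowest, the library labelled UAS:Nr2f5. Of the mutated genes, nr2f5 had 12.2 and 14.7 RPM in the mutants against 28.8 for the control, and nr2f2 had 38.9 and 30.9 against 41.4. nr2f5 was at 30.3 RPM in the library labelled UAS:Nr2f5, close to the control, although its label names a gain of that gene, so every direction taken from it rests on the label alone. Arch crest markers were found in all libraries, but in the control and the library labelled UAS:Nr2f5 they summed to less than the muscle markers (values below). Since the samples are bulk RNA, fewer cells of a type and less RNA per cell cannot be told apart.

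nkx3.2 and barx1 had the widest range of the 5 members detected in every library, and both were low in the library labelled UAS:Nr2f5 and high in the mutants. nkx3.2 was at 8.05 RPM in the control, 16.0 in mutant 1, 13.6 in mutant 2 and 1.28 in the library labelled UAS:Nr2f5, which is 241, 555, 308 and 13 reads. Its 95% counting interval (exact Clopper-Pearson, as for all intervals here) in that last library was 0.683 to 2.19 RPM, below the 7.06 to 9.13 of the control. All 4 libraries stood apart beyond counting error, in the order mutant 1, mutant 2, control and the library labelled UAS:Nr2f5.

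barx1, whose product opposes the joint, had the same order of libraries. It was at 26.3 RPM in the control, 45.1 in mutant 1, 38.9 in mutant 2 and 5.63 in the library labelled UAS:Nr2f5, which is 787, 1569, 882 and 57 reads. Each step of that order was also beyond counting error, the smallest being the ratio of mutant 1 to mutant 2, 1.16 (1.07 to 1.26). So a gene of the joint and a gene of the cartilage that surrounds it lay on the same side of the control in each library.

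trps1 shared the order with a smaller range. It was at 22.9 RPM in the control, 34.2 in mutant 1, 32.4 in mutant 2 and 12.4 in the library labelled UAS:Nr2f5. The mutants did not differ from each other beyond counting error (ratio 1.06, 0.963 to 1.16), and both lay above the control, which lay above the library labelled UAS:Nr2f5.

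The Iroquois members did not share that order. irx5a was at 5.41 RPM in the control, 1.32 in mutant 1, 1.15 in mutant 2 and 4.34 in the library labelled UAS:Nr2f5, so that it was lowest in the mutants. The control and the library labelled UAS:Nr2f5 did not differ beyond counting error for irx5a (ratio 1.25, 0.888 to 1.78), nor did the mutants (1.15, 0.698 to 1.94), but the lower of the former was above the higher of the latter by 3.29 (2.12 to 5.08).

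irx7 was at 2.20 RPM in the control, 1.52 in mutant 1, 1.81 in mutant 2 and 0.691 in the library labelled UAS:Nr2f5, on 66, 53, 41 and 7 reads. No neighbours in its order of levels differed beyond counting error, though the highest, the control, was above the lowest by 3.19 (1.46 to 8.24). gdf5, the joint ligand, was close to the limit of detection, at 0.601 RPM in the control, 1.12 in mutant 1, 0.265 in mutant 2 and 0 in the library labelled UAS:Nr2f5. Those values are 18, 39, 6 and 0 reads. A fixed limit of 3 reads for a count of 0 is 0.296 RPM in that library, and the control value is 2.03-fold that limit. The exact 95% interval of the count of 0 reaches further, to 0.364 RPM. With the counting error of both libraries, the 95% interval of the ratio of control to that library starts at 1.49. The mutants disagreed on gdf5, with intervals of 0.797 to 1.53 and 0.0971 to 0.576 RPM that do not overlap, and the control value lay between theirs. Intervals cover counting error only and treat reads as independent. Reads amplified by PCR are not independent molecules, so the intervals can be too narrow, and small steps beyond them are uncertain.

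**Figure D1:**
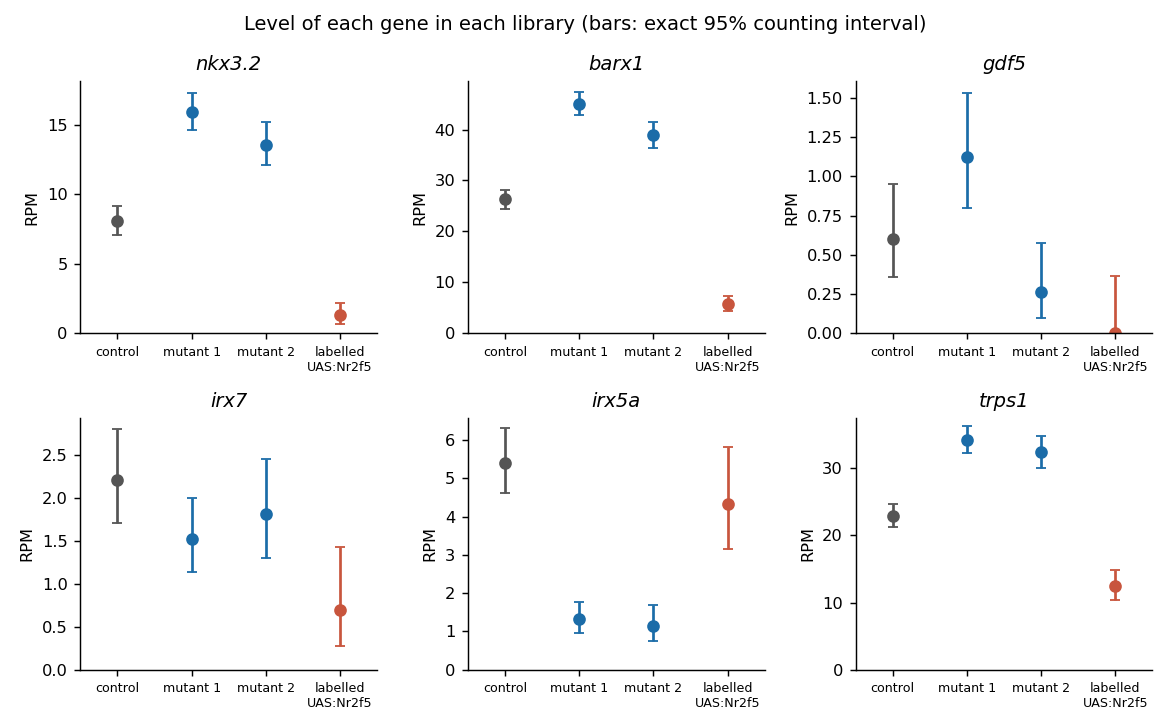
Level of each of the 6 genes (vertical axis, RPM from 0) in each of the 4 libraries (horizontal axis); points are values, bars exact 95% counting intervals, and each panel has its own scale. nkx3.2, barx1 and trps1 are highest in the mutants and lowest in the library labelled UAS:Nr2f5, irx5a is lowest in the mutants, and gdf5 is at 0 in the library labelled UAS:Nr2f5.

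nkx3.2 and barx1 were the tested members at least 2-fold lower in the library labelled UAS:Nr2f5 than in the control on the log2(RPM + 1) scale, and irx7 joined them with smaller pseudocounts. nkx3.2 was lower by a ratio of 6.27 (3.60 to 11.9) and barx1 by 4.67 (3.57 to 6.22). trps1 was lower by 1.84 (1.52 to 2.24), under the 2-fold mark in RPM as well. irx7 was lower by 3.19 but missed the 2-fold mark on the scale used for the count, where low genes are compressed. The log2 difference of irx7 was −0.92 there, −1.18 with a pseudocount of 0.5 and −1.54 with 0.1. The count of 2 below therefore becomes 3 with either. Of all 11391 genes, 1818 were 2-fold apart on the scale used, 2383 with a pseudocount of 0.5 and 2922 with 0.1. A mean of 1 RPM or more was reached by 5 members, all but gdf5, and of these 2 were 2-fold lower and 0 higher. Of the 11391 genes at that level, 16.0% were 2-fold apart either way, 9.17% lower and 6.79% higher. On that scale barx1 had a log2 difference of −2.04 and nkx3.2 of −1.99, which are ranks 51 and 65 from the lowest of the 11391 genes. The median gene differed by −0.11. With 1 library on each side there is no test and no replicate check of these differences.

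Markers of other cells also differed between these libraries. Summed over 5 markers of arch crest (twist1a, prrx1a, prrx1b, dlx2a and sox9a), values were 103 RPM in the library labelled UAS:Nr2f5 and 157 in the control, with 5 of 5 lower and 2 of them 2-fold. Muscle markers summed to 4732 against 1420 RPM (10 of 10 at least 2-fold higher) and epidermal markers to 1982 against 649 (6 of 7), with 0 markers of either list at 0. Per 100 RPM of the arch crest markers, nkx3.2 was at 1.24 in the library labelled UAS:Nr2f5 and 5.12 in the control, 4.12-fold lower, and barx1 at 5.45 and 16.7, 3.07-fold lower. trps1 was at 12.1 and 14.6 on that footing, 1.21-fold lower, and irx7 at 0.670 and 1.40. irx5a was at 4.21 against 3.44, above the control. Of the arch crest markers, prrx1a and prrx1b were nearly level, together 58.6 against 62.9 RPM. Per 100 RPM of that pair, which was chosen after its values were seen, nkx3.2 was 5.84-fold and barx1 4.35-fold lower. On the same pair trps1 was 1.72-fold, irx7 2.97-fold and irx5a 1.16-fold lower. The side of irx5a and the size of the trps1 difference thus depended on the markers used. The part of cell makeup in the members' differences was not tested beyond these values.

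The mutants were compared with the library labelled UAS:Nr2f5 by limma on log2(RPM + 1), with p-values adjusted over all 11391 genes. That library enters the comparison above as well, so the comparisons are not independent. 3 of the 5 tested members passed, all of them higher in the mutants, where 20.1% of all genes passed either way, 11.2% higher and 8.92% lower. nkx3.2 was at 14.8 ± 1.68 RPM (SD, n = 2) in the mutants against 1.28, an 11.5-fold higher mean, with a log2 difference of 2.78 ± 0.27 SE (limma adjusted p = 0.00521). barx1 was at 42.0 ± 4.39 RPM (SD, n = 2) against 5.63, 7.46-fold higher, with a log2 difference of 2.69 ± 0.19 SE (limma adjusted p = 0.00227). These are ranks 9 and 13 from the highest of all genes tested. trps1 was at 33.3 ± 1.29 RPM (SD, n = 2) against 12.4, 2.68-fold higher (log2 difference 1.35 ± 0.18 SE, limma adjusted p = 0.00946).

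The remaining members did not pass in that comparison. irx5a, the member that was lower in the mutants, was at 1.23 ± 0.124 RPM (SD, n = 2) against 4.34, 3.52-fold lower (log2 difference −1.26 ± 0.36 SE, limma adjusted p = 0.0576). irx7 was at 1.67 ± 0.201 RPM against 0.691 (log2 difference 0.65 ± 0.34 SE, limma adjusted p = 0.210). gdf5 was not tested, at 0.693 ± 0.606 RPM against 0. By size, 3 members were 2-fold higher in both mutants and irx5a 2-fold lower, against 9.02% and 9.79% of all genes (18.8% together). The replication is the mutant pair alone (1 residual degree of freedom), and the single libraries are taken to vary as much. The eBayes step of limma draws each gene's spread toward a trend over all genes. SE and p-values therefore rest largely on the spread of other genes. When libraries were scaled to the arch crest markers, the call for trps1 was lost (log2 difference 0.23, limma adjusted p = 0.249), irx5a passed (−2.11, limma adjusted p = 0.0144), and nkx3.2 and barx1 still passed, at 1.92 and 1.62 (limma adjusted p = 0.0128 and 0.0102). Of 11755 genes tested under that scaling, 349 passed as higher in the mutants and 5687 as lower. irx5a also passed under the early neural crest scaling (limma adjusted p = 0.0306), where 2215 of 11513 genes passed as lower. It passed without a trend too (limma adjusted p = 0.0464), but not under the median-ratio scaling (limma adjusted p = 0.0505). With no filter on low values, 0 of the members passed limma, as did 0 of all 22078 genes. An unadjusted p under 0.05 was then found for 4 of 6 members and for 5311 of the 22078 genes.

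No member passed the same test between the mutants and the control. By limma 0 of 5 passed over all genes, where 1.04% of genes passed (0.0263% higher and 1.01% lower), and 4 of 5 had an unadjusted p under 0.05, as had 13.2% of genes. That count held with other pseudocounts, the median-ratio scaling and only the groups compared. It was 2 of 5 without a trend, beside 1419 of 11391 genes, and 2 of 6 with no filter, beside 3776 of 22078. At a mean of 5 RPM or more it was 3 of 3, beside 915 of 5294 genes. It was 1 of 5 under the early neural crest and arch crest scalings, beside 2406 of 11513 and 3344 of 11755 genes. nkx3.2 was at 14.8 ± 1.68 RPM (SD, n = 2) against 8.05 (log2 difference 0.80 ± 0.27 SE, limma adjusted p = 0.270), barx1 at 42.0 ± 4.39 against 26.3 (0.65 ± 0.19 SE, limma adjusted p = 0.207) and trps1 at 33.3 ± 1.29 against 22.9 (0.52 ± 0.18 SE, limma adjusted p = 0.281). irx5a was at 1.23 ± 0.124 RPM against 5.41, a 4.38-fold lower mean and the one member 2-fold apart in both mutants (log2 difference −1.52 ± 0.36 SE, limma adjusted p = 0.129). In both mutants 5.93% of all genes were 2-fold apart (0.579% higher and 5.36% lower). irx7 was at 1.67 ± 0.201 against 2.20 (−0.27 ± 0.34 SE, limma adjusted p = 0.817). barx1 passed when the test was limited to genes that averaged 5 RPM or more (limma adjusted p = 0.0482), as did 413 of 5294 genes there.

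**Figure D2:**
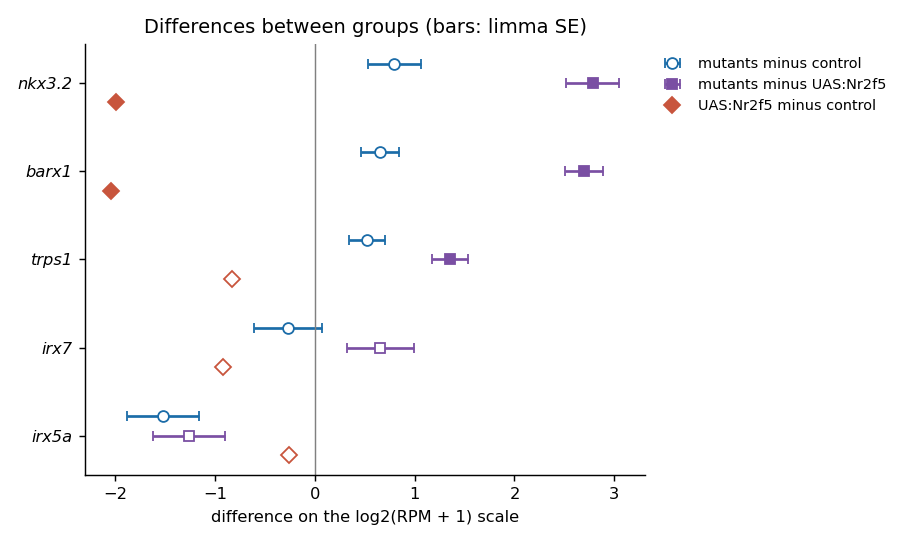
Difference in log2(RPM + 1) (horizontal axis) for the 5 tested genes (vertical axis) in 3 comparisons; bars are the limma SE, and the comparison of single libraries has none. Filled symbols passed limma over all genes, or the 2-fold rule where single libraries are compared: nkx3.2 and barx1 are filled in both comparisons with the library labelled UAS:Nr2f5, trps1 against the mutants, and no gene between mutants and control.

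Arch crest markers were also higher in the mutants, and markers of other cells lower. The 5 arch crest markers summed to 230 and 238 RPM in the mutants against 157 in the control, 1.49-fold higher on average (5 of 5 higher, 0 passing limma over all genes). The mutant mean of nkx3.2 was 1.83-fold, of barx1 1.60-fold and of trps1 1.45-fold that of the control. Per 100 RPM of those markers, barx1 was at 19.6 and 16.3 in the mutants and 16.7 in the control, and trps1 at 14.9 and 13.6 against 14.6, so that the control lay between the mutants for both genes. With libraries scaled to those markers trps1 had a log2 difference of −0.03 to the control and barx1 of 0.10. nkx3.2 was at 6.95 and 5.71 against 5.12 on that footing. irx5a remained far lower in the mutants, at 0.576 and 0.482 against 3.44, and irx7 was lower, at 0.664 and 0.760 against 1.40.

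**Figure D3:**
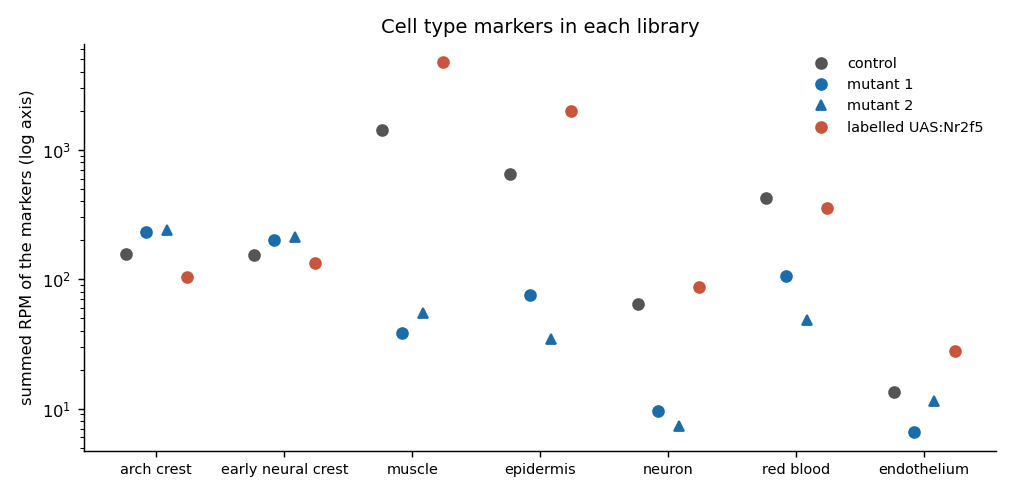
Summed RPM (vertical log axis) of the markers of 7 cell classes in each library. The arch crest sum is highest in the mutants (230 and 238 RPM) and lowest in the library labelled UAS:Nr2f5 (103), while muscle and epidermal sums run the other way.

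The ratio of the opposed factors nkx3.2 and barx1 to each other had overlapping intervals in the 4 libraries. Within a library such a ratio does not depend on how libraries are scaled, although its size depends on gene length. There were 0.354 reads of nkx3.2 per read of barx1 in mutant 1 (0.321 to 0.390), 0.349 in mutant 2 (0.306 to 0.398) and 0.306 in the control (0.264 to 0.354). In the library labelled UAS:Nr2f5 the ratio was 0.228, on 13 reads of nkx3.2, with an interval of 0.115 to 0.422 that overlaps the other 3. The ratio of barx1 to trps1 did move, from 1.15 in the control (1.03 to 1.27) to 0.452 (0.325 to 0.623) in that library, and was 1.32 and 1.2 in the mutants. The ratio of nkx3.2 to irx5a, members that ran in opposite directions in the mutants, was 12.1 and 11.8 in the mutants, 1.49 in the control and 0.295 in the library labelled UAS:Nr2f5.

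Profiles over the 4 libraries were then compared across all tested genes, by the root-mean-square distance between log2(RPM + 1) values centred on each gene's mean. The 4 libraries are all the points there are, so the distances are a description. Of the 11390 other genes, barx1 was the nearest to nkx3.2 and nkx3.2 the nearest to barx1, at a distance of 0.0618. With a pseudocount of 0.5 they ranked 9 and 13 in each other's lists, and with 0.1 they ranked 27 and 57. After barx1, the nearest to nkx3.2 were nkd2a (0.106), which encodes an inhibitor of Wnt signalling and was at 7.47 and 7.41 RPM in the mutants, 4.14 in the control and 0.395 in the library labelled UAS:Nr2f5, and rspry1 (0.115). After nkx3.2, the nearest to barx1 were rspry1 (0.0722) and zgc:66474 (0.0813).

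**Figure D4:**
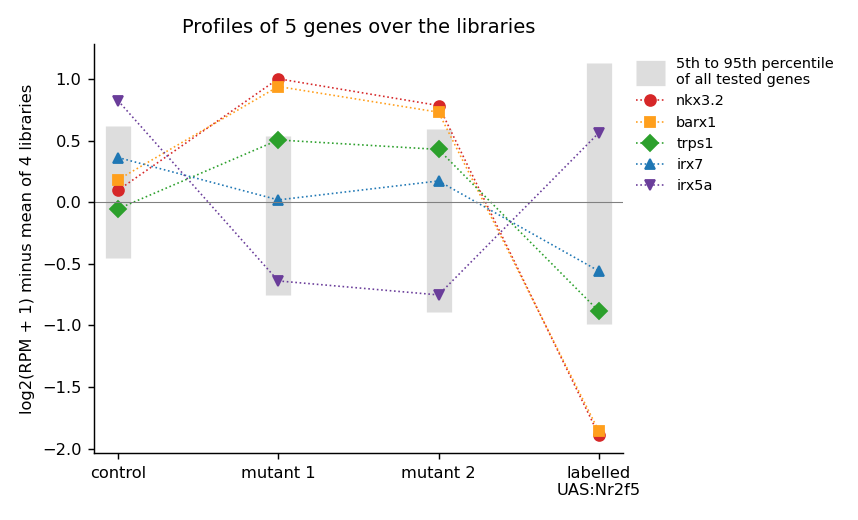
Centred log2(RPM + 1) of the 5 tested genes (vertical axis) in each library; dotted lines only join the points of a gene, and grey bars span the 5th to the 95th percentile of the 11391 genes. nkx3.2 and barx1 nearly coincide, below the grey bar in the library labelled UAS:Nr2f5 and above it in both mutants, and irx5a runs the other way.

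The other members were farther from that pair. Among the 11390 other genes, trps1 ranked 529 from nkx3.2 and 563 from barx1, irx7 ranked 2719 and 2589, and irx5a ranked 10385 and 10357. Ranks differ by the gene they start from, and from trps1, barx1 ranked 6278 and nkx3.2 6651. The nearest to trps1 were phldb2a (0.0252), at 34.9, 31.4, 22.7 and 12.3 RPM in mutant 1, mutant 2, the control and the library labelled UAS:Nr2f5, afap1l1a (0.0310) and SLC44A2 (2 of 2) (0.0312). The nearest to irx5a were eng1b (0.0578), which encodes an Engrailed homeodomain factor, a row named Metazoa_SRP (0.0607) and gfpt2 (0.0657), which were at or under 0.201 RPM in both mutants. The nearest to irx7 were kif26ba (0.0155), nrde2 (0.0171) and klf12a (0.0173). Both mutants lay above both other libraries for 3 of the 5 tested members, as for 28.7% of all genes, and below both for irx5a, as for 20.4%.

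Of the other Iroquois genes at the level tested, irx1a, irx2a and irx3a lay with irx5a, lower in both mutants than in both other libraries. irx7 and irx3b did not, and irx1b in mutant 2 (2.69 RPM) was nearly level with the control (2.71). All 11 listed genes had a row, and 7 averaged 1 RPM or more. All 7 were below the control in the mean of the mutants and 4 were 2-fold lower in both, as were 5.36% of all genes. By limma over all genes 0 passed, and the median log2 difference was −1.29 against 0.03 for all genes. Against the library labelled UAS:Nr2f5 2 fell and 0 rose, irx3a (2.43 ± 0.506 RPM, n = 2, against 11.4, limma adjusted p = 0.0180) and irx1a (0.641 ± 0.720 RPM, n = 2, against 4.64, limma adjusted p = 0.0448). irx1a reached the level tested only through the libraries where it was high. Of all genes 8.92% fell and 11.2% rose. irx5a sits between irx6a and irx3a by order in the RefSeq genes of GRCz12tu, and Iroquois genes are known to lie in such clusters. irx3a was at 2.79, 2.07, 7.35 and 11.4 RPM in mutant 1, mutant 2, the control and the library labelled UAS:Nr2f5, and irx6a at 0.259, 0.309, 0.635 and 0.691. Both were lower in each mutant than in either other library, as irx5a was, but irx6a was under the level tested. Its 0.691 RPM is 7 reads, as for irx7 in that library, and its counting intervals were not computed. irx5b, also under that level, was at 0.891, 0.265, 1.34 and 0 RPM in the same order, so that it was lowest in the library labelled UAS:Nr2f5. Between single libraries 0 of the 7 genes were 2-fold apart. With libraries scaled to the arch crest markers 5 of the 7 fell against the library labelled UAS:Nr2f5, irx5a, irx1a, irx1b, irx2a and irx3a, as did 5687 of 11755 genes. Under that scaling irx3a was 2-fold higher in that library than in the control, where the median turned from −0.26 to 0.25, against 0.43 for all genes.

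Neuronal markers were low in the mutants as well. The 6 of them summed to 9.60 and 7.28 RPM in the mutants, 64.0 in the control and 87.7 in the library labelled UAS:Nr2f5, with 6 of 6 lower than the control in the mutants, 1 passing limma, and stmn2a at 0 in mutant 2. Muscle markers summed to 38.5 and 54.9 RPM in the mutants against 1420 in the control (10 of 10 fell by limma over all genes, and myhz1.2 was at 0 in mutant 2), and epidermal markers to 75.2 and 34.2 against 649 (2 of 7 fell). Red blood cell markers summed to 106 and 48.5 against 428 RPM (1 of 6 rows fell), and endothelial markers to 6.55 and 11.4 against 13.5 (0 of 3 tested). Their part in the values of irx5a and its family was not tested.

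**Figure D5:**
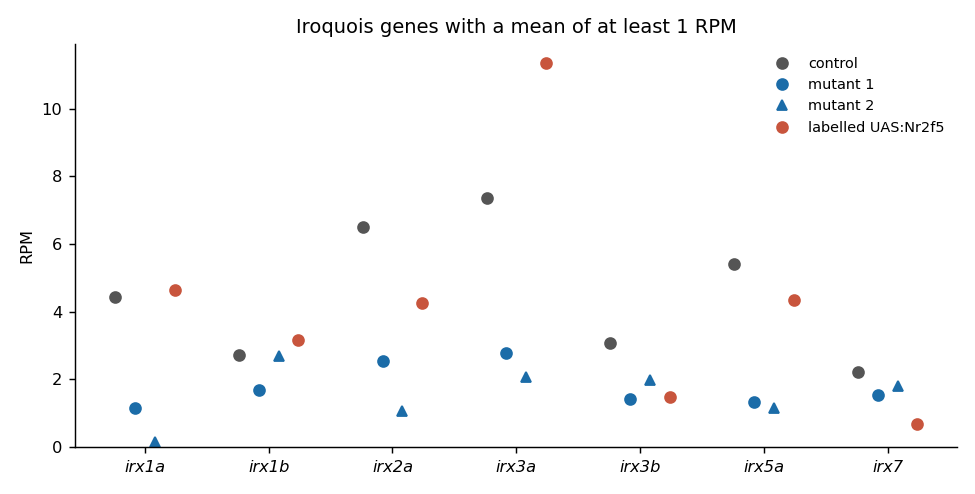
RPM (vertical axis, from 0) of the 7 Iroquois genes that averaged 1 RPM or more in each library. irx1a, irx2a, irx3a and irx5a lie lower in both mutants than in the control and in the library labelled UAS:Nr2f5, and irx7 is lowest in the library labelled UAS:Nr2f5.

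Among other joint genes, the ligand gene gdf6a and the Bmp antagonist gene nog2 were on the same side of the control as nkx3.2 in each library. gdf6a, a relative of gdf5, had 7.33 and 5.47 RPM in the mutants against 2.84 for the control and 0.494 in the library labelled UAS:Nr2f5, and passed limma between the mutants and that library (log2 difference 2.30, adjusted p = 0.0152). On few reads there, it was 5.75-fold lower than in the control, with a wide interval of 2.37 to 18.2. nog2 had 11.3 and 11.4 RPM in the mutants against 6.95 for the control and 2.47 in the library labelled UAS:Nr2f5 (limma adjusted p = 0.0109 for the mutants against that library), 2.81-fold lower there than in the control (1.85 to 4.45). thbs4b, a thrombospondin of tendon and connective tissue, went the other way, with 0.604 and 0.617 RPM in the mutants against 3.31 for the control and 3.95 in the library labelled UAS:Nr2f5 (limma adjusted p = 0.0280). It reached the level tested only through the libraries where it was high. Of 24 listed ligands, antagonists and matrix genes of joints, 8 averaged 1 RPM or more. Against the library labelled UAS:Nr2f5 2 of them rose and 1 fell in the mutants, where 11.2% of all genes rose and 8.92% fell. Against the control 0 passed. Set against the control, the library labelled UAS:Nr2f5 was 2-fold higher for 1 of them, grem1b, and lower for 2, nog2 and gdf6a (median −0.28, all genes −0.11, with 6.79% higher and 9.17% lower). Under the arch crest scaling nog2 lost that 2-fold difference, gdf6a and grem1b kept theirs, and the median turned to 0.19, against 0.43 for all genes. Between the mutants and that library nog2 and gdf6a rose and thbs4b fell under the 3 other scalings too, but the median of the list against the library labelled UAS:Nr2f5, 0.45, turned to −0.62 with libraries scaled to the arch crest markers, where tnc and grem1b fell too. The median of all genes was −0.86 under that scaling, and 5687 of 11755 genes fell, so the list lay above the median gene. prg4a and prg4b, which encode the lubricant of mature joints, were at or under 0.610 RPM in all libraries.

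Receptors and Smads through which gdf5 signals included 4 genes that rose in the mutants. bmpr1ba, 1 of the type I receptor genes that bind Gdf5-like ligands, had 10.9 and 14.5 RPM in the mutants against 6.68 for the control and 2.47 in the library labelled UAS:Nr2f5. It was 2.71-fold lower (1.78 to 4.28) in that library than in the control, and rose in the mutants against it (log2 difference 1.97, limma adjusted p = 0.0119). The effector gene smad5 also rose against it (19.3 ± 1.12 RPM, n = 2, against 6.12, limma adjusted p = 0.0105), as did the receptor gene bmpr1ab and the inhibitory Smad gene smad6a (limma adjusted p = 0.0320 and 0.0401). Of 16 rows, all at 1 RPM or more on average, 4 rose and 0 fell, where 11.2% of all genes rose and 8.92% fell. The median was 0.58 against 0.17 for all genes. Against the control 0 passed, and the median was 0.16. Between single libraries 2 of 16 were 2-fold lower, bmpr1ba and smad9, and 0 higher, against 9.17% and 6.79% of all genes. Under the median-ratio and the early neural crest scalings 2 of 16 rose in the mutants against that library, smad5 and bmpr1ba, and 0 fell. Of all genes 831 of 11340 rose and 1158 fell under the former, and 428 of 11513 rose and 2215 fell under the latter. With libraries scaled to the arch crest markers 1 rose, bmpr1ba, 4 fell (acvr2aa, bmpr2a, bmpr2b and a row of bmpr1bb), the median turned to −0.55, and 0 were 2-fold apart between single libraries. For all genes that median was −0.86, and of 11755 genes 349 rose and 5687 fell.

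Relatives of nkx3.2 and barx1 were scarce. nkx3.3, barx2 and barhl1a had means under 1 RPM. barhl2, a BarH-like homeobox gene of the nervous system, had 0 and 0.0882 RPM in the mutants against 2.24 for the control and 3.46 in the library labelled UAS:Nr2f5, and fell in the mutants against the latter (limma adjusted p = 0.0108). It reached the level tested only through the libraries where it was high. Its mutant values lie at the floor, where their spread is small by construction, so the p-value adds little to the values.

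The cartilage genes that barx1 and the Iroquois factors act beside moved in both directions. sox9a, the master regulator of chondrocytes and also 1 of the arch crest markers, had 68.5 and 83.0 RPM in the mutants against 44.1 for the control and 21.4 for the library labelled UAS:Nr2f5. sox5, its partner, had 136 and 135 RPM against 98.7 and 43.6. Both rose in the mutants relative to the library labelled UAS:Nr2f5 (limma adjusted p = 0.00624 and 0.00593), as did sox6, the matrilin gene matn4 and the collagen gene col9a1a. The collagen genes col11a1a, col9a1b and col9a2 fell, col11a1a from 108 to 37.5 and 34.8 RPM (limma adjusted p = 0.00622). These are 5 that rose and 3 that fell of 19 rows that averaged 1 RPM or more, with a median of 0.38. Of all genes 11.2% rose and 8.92% fell, with a median of 0.17. Against the control 0 passed, and the median was 0.12. The library labelled UAS:Nr2f5 was 2-fold above the control for col9a1b and col11a2 and 2-fold below it for sox5 and sox9a, with a median of −0.27. It was above for 6.79% and below for 9.17% of all genes, with a median of −0.11. With libraries scaled to the arch crest markers, which include sox9a, 2 rose in the mutants relative to the library labelled UAS:Nr2f5, sox9a and sox5, and 10 fell, with a median of −0.74. Of 11755 genes 349 rose and 5687 fell under that scaling, with a median of −0.86. Between single libraries sox9a lost its 2-fold difference under the median-ratio scaling, and 0 genes were 2-fold lower under both crest scalings, with 3 higher under the early neural crest and 5 higher under the arch crest scaling, where the median turned to 0.33, against 0.43 for all genes.

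Endothelin 1 from the arch epithelia and its Dlx and Hand2 targets in the crest are known to set the intermediate and ventral arch domains where nkx3.2 and barx1 are expressed. Of 17 genes of that pathway that averaged 1 RPM or more, 8 were 2-fold lower in the library labelled UAS:Nr2f5 than in the control and 0 higher, with a median of −0.94, which was the same with zeros set to 3 reads. Of all genes 9.17% were 2-fold lower and 6.79% higher, with a median of −0.11. Under the arch crest scaling 7 of the 17 were lower and 2 higher, furina and msxd, with a median of −0.42, against 0.43 for all genes. The gene lost from the lower count was dlx2a, which is also 1 of the arch crest markers that set this scaling. In the mutants 9 of 17 rose against that library and 0 fell, with a median of 1.00, where 11.2% of all genes rose and 8.92% fell. dlx5a, with a log2 difference of 3.29, and hand2, with 2.74, were among them (limma adjusted p = 0.00227 and 0.00579), and nkx3.2 and barx1 lay at 2.78 and 2.69 on the same scale. Against the control 0 passed, 16 of 17 were above it in the mean of the mutants, and the median was 0.32. With libraries scaled to the arch crest markers, 7 rose and 3 fell against the library labelled UAS:Nr2f5, hand2 and dlx5a among those that rose, and the medians turned to −0.04 there and −0.22 against the control. The medians of all genes were then −0.86 and −0.43, and 349 genes rose and 5687 fell of 11755 against the library labelled UAS:Nr2f5. The ligand gene itself, edn1, was at 0.144 RPM in mutant 1 and listed at 0 in the other libraries.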

How the data were processed

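The authors deposited 1 table of gene values that its name calls TPM. The tools TopHat2 and Partek and the build GRCz10 are named, per the submitters' processing notes; versions, annotation, strand setting and the role of each tool are not given in the sources used here. The deposited values were taken as RPM, because low values within a library are mostly whole multiples of a common step. Within 0.02 read, 88.4% to 94.0% of values worth at most 1000 reads were whole, too few for a count test. All values of the 6 genes were whole. Values under 1e-06 were set to 0. The scale is assumed: columns sum to 147940 to 158345. Reads in genes were 1498321 to 5286229, and 1 read sets the precision.

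Per the labels' protocols, embryos grew at 28.5 °C to 27 hpf and at 22 °C from there on, RNA was amplified with the SMARTer kit, and 75-bp paired ends were sequenced. Replicate mutants are 2 libraries, and whether they came from separate clutches is not stated. The p-values rest on the spread between those libraries, which eBayes draws for each gene toward a trend fitted over all genes.

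log2(RPM + 1) was fitted with limma 3.58.1 (R 4.3.3; eBayes with a trend, Benjamini-Hochberg, threshold 0.05) on the 11391 genes that averaged 1 RPM or more, with 1 mean per group over all 4 libraries. The code was run on simulated data whose spread was drawn from the fit itself, with changes planted at levels above those of the members. That run checks the code and cannot show how the test holds for the members or for single libraries. No test was made between single libraries, where genes at least 2-fold apart on that scale were counted, with exact Clopper-Pearson 95% intervals on reads rounded to whole numbers. Of 159 genes in 14 lists, 154 were matched, 8 of them by the reference table of names. Members and lists were chosen with earlier results of these data known. Named genes are the members, the 3 nearest profiles of each, and in each list up to 4 limma calls and the 2 most different genes each way between single libraries with a mean of at least 5 RPM; others were named after their values were seen. Sequences were not used here. Some listed genes are not reported here. Python 3.11.15 with scipy 1.17.1 made the intervals.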

Additional observations from a re-analysis of the deposited data

How the results depend on the processing

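Alternatives changed the pseudocount (0.1 and 0.5), the filter on low values (none, or a mean of at least 5 RPM), the scaling (median-ratio, early neural crest, and arch crest, the last chosen after the data were seen), the trend in eBayes and the samples in the fit. Of 139 recomputed differences of members, 128 kept their side of the threshold or moved within their spread, 4 lost a call, 4 gained one, 3 moved and 0 reversed a called direction. A tested difference that passed in neither fit counts as kept even where its sign changed. Under the arch crest scaling trps1 against the control went from 0.52 to −0.03 and counts as kept. irx5a between single libraries went from −0.26 to 0.25 there and is among those that moved. Members passing between mutants and control numbered 0 (of 5, or of 6 with no filter) under the alternatives run, except the mean of at least 5 RPM, where 1 of 3 passed. Between mutants and the library labelled UAS:Nr2f5 they numbered 3 or 4, except 0 with no filter, where limma's adjusted p was 0.117 for nkx3.2 and 0.115 for barx1. Between single libraries 2 were 2-fold apart, and 3 with the pseudocounts 0.1 and 0.5, as irx7 joined. With those pseudocounts 2922 and 2383 of all 11391 genes were 2-fold apart. The limma adjusted p for the mutant pair beside the library labelled UAS:Nr2f5 varied over all alternatives with a test. In that comparison the limma adjusted p ran from 4.1e-18 to 0.117 for nkx3.2, from 1.4e-30 to 0.115 for barx1 and from 3.1e-08 to 0.249 for trps1. For irx5a it ran from 0.0144 to 0.152. The lowest values of nkx3.2, barx1 and trps1 came from the filter at a mean of at least 5 RPM. With 1 residual degree of freedom, values that low rest on the spread shared over genes and not on the mutant pair.

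Over all genes, 118 passed between mutants and control (3 higher), 22 and 52 with the lower pseudocounts 0.1 and 0.5, 0 of 22078 with no filter (3776 at an unadjusted p under 0.05), 413 at a mean of 5 RPM or more (154 higher), 66, 54 and 29 under the median-ratio, early neural crest and arch crest scalings, 24 without a trend and 350 with only the groups compared. Between mutants and the library labelled UAS:Nr2f5, 2287 passed (1271 higher, 1016 lower), 1449 with a pseudocount of 0.1, 0 with no filter (5311 unadjusted) and 6036 under the arch crest scaling (349 higher, 5687 lower); the split was 831 and 1158 under the median-ratio and 428 and 2215 under the early neural crest scaling. With a mean of at least 5 RPM it was 1459 higher of 1921. Between single libraries 1818 were 2-fold apart (773 higher, 1045 lower), 2922 with a pseudocount of 0.1, 484 at a mean of 5 RPM or more and 3072 under the arch crest scaling (2552 higher, 520 lower); the split was 962 and 845 under the median-ratio and 1295 and 826 under the early neural crest scaling. The cause was not tested. The median gene of the mutants against the control shifted from 0.03 to −0.31 and −0.43 under the crest scalings, against the library labelled UAS:Nr2f5 from 0.17 to 0.02, −0.39 and −0.86 under the 3 scalings, and between single libraries from −0.11 to 0.00, 0.08 and 0.43.

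Without either mutant no residual degree of freedom is left and no test can be had; the log2 difference to the library labelled UAS:Nr2f5 was then 2.67 to 2.89 for nkx3.2, 2.59 to 2.80 for barx1 and 1.31 to 1.39 for trps1. No paired analysis was possible because 2 of the 3 groups hold a single library, with no replicate number shared with the mutants. Among the members, depth limits gdf5 and irx7 most, on 0 to 39 and 7 to 66 reads.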
